A study of Oryza sativa Japonica Group with 36 samples.

Results

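C418 is a japonica restorer line of rice that is sensitive to cold, and its seedlings after 24 h at 4 °C are described here. The 6 arrays of the comparison, of 36 in the series, were chosen by their labels: 3 replicates of C418 held at 4 °C for 24 h and 3 replicates of the C418 control kept at 25 °C, whose RNA pooled shoots taken at 2 h and at 24 h. Whole shoots at the 3-leaf stage, grown under a 12 h photoperiod in a separate pot for each replicate, were hybridised to an Affymetrix rice genome array. The other arrays held C418 at 2 h, 6 h, 12 h and 48 h of cold and the same series of K354, a cold-tolerant introgression line bred from C418 as recurrent parent and the indica donor Bg300. Of the 57381 probe sets, 123 were manufacturer controls and 57258 were tested.

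In plants, cold is sensed within minutes through changes in membranes and cytosolic calcium. A first wave of transcription factors follows, among them the DREB1 factors (also called CBF), which bind the dehydration-responsive element in the promoters of genes for protective proteins, sugar metabolism and membrane lipids. A second and slower phase adjusts photosynthesis, growth, cell walls and hormone balance, and the 24 h sampling falls within that phase.

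Values are intensities in arbitrary units, and a fold change is the ratio of means of logs. The median intensity was 61.7 to 65.5 on the 24 h arrays and 62.3 to 62.5 on the control arrays, and arrays correlated at 0.989 to 0.990 within the 24 h group, at 0.995 within the control and at 0.937 to 0.943 between them. The 27 hybridisation controls read 0.48 higher and the 42 poly-A spike-in controls 0.93 higher in log2 at 24 h than in the control. The 25S rRNA probe set read 925 to 1005 in the control and 4997 to 5599 at 24 h. Rescaling to either set of spike-ins lowers all differences against the control alike, to a median over all probe sets of −0.51 or −0.96 in place of −0.0309, and the part of RNA yield in this was not tested. Root markers were low (Lsi1, a root silicon transporter, 182 to 191), LHCP, a chlorophyll a-b binding protein of leaves, was among the brightest at 12584 to 12940 in the control, and of the seed storage proteins only the globulin GLB reached more than a low level, at 1151 to 1191. In whole shoots, fewer cells of a type and less RNA per cell cannot be told apart.

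After 24 h of cold, 946 probe sets were induced and 195 repressed by more than 5-fold at an adjusted p under 0.05 (limma, Benjamini-Hochberg), which are 1.65% and 0.341% of those tested. Induced probe sets thus made up 82.9% of these DEGs, a share that was 52.9% after scaling to the hybridisation controls and 23.7% after scaling to the poly-A controls. At the same adjusted p with no fold requirement, 10716 (18.7%) were higher and 12870 (22.5%) lower, and these 2 shares are the background for the counts of each gene list given below. The induced probe sets had a median log2 change of 3.08, with 389 above 10-fold and 44 above 50-fold. The repressed ones had a median of −2.61, with 30 beyond 10-fold and 0 beyond 50-fold. In 254 of the induced probe sets the control lay below the 25th percentile of each of its arrays, called dim here, and for these a fold is given as "at least" that against the percentile. Of the 3444 genes carrying several probe sets, 214 had a DEG call on one or more, only 53 on all, and none in opposite directions. The fold nearest inside the limit was 5.008 (OsRac2, a small GTPase) and the nearest outside it was 4.995.

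**Figure D1:**
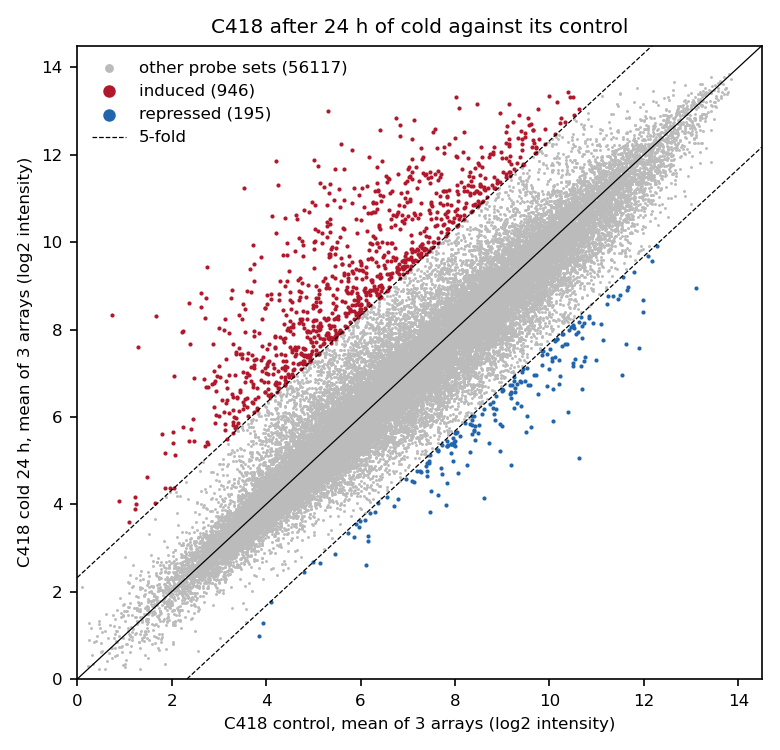
Mean log2 intensity of every tested probe set in the C418 control (x axis) and after 24 h of cold (y axis), 3 arrays a group; grey points are probe sets that are not DEGs, the coloured points the 946 induced and 195 repressed ones, and the dashed lines mark a 5-fold change. Induced points lie farther from the diagonal than repressed ones, with 44 against 0 beyond 50-fold.

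The DREB1 factors, the regulators named above, were strongly induced. DREB1B read 164, 375 and 327 on the 3 control arrays and 8596, 8495 and 8546 on the 24 h arrays. DREB1A read 156, 278 and 240 in the control and 4513, 4547 and 4852 in the cold. DREB1G read 75.2, 92.5 and 76.6 against 3205, 3705 and 3305. In each the cold arrays lay far above the control arrays, with less relative spread in the cold than in the control, and the log2 changes were 4.97 ± 0.21, 4.41 ± 0.18 and 5.39 ± 0.27 (SE, limma, adjusted p = 3.98e-17, 4.02e-17 and 1.19e-15). DREB1E was dimmer, at 24.9 to 33.2 in the control and 223 to 264 in the cold (8.40-fold). The locus annotated as DREB1F, LOC_Os01g73770, was dim in the control at 8.33 to 9.13 and read 194, 204 and 408 at 24 h, at least 9.06-fold. In that gene replicate 3 stood at about the sum of the other cold arrays, while all 3 lay above the control.

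DREB1C gave different answers on different probe sets. The 3 probe sets that RefSeq names DREB1C had log2 changes of −0.23, 0.46 and −0.16, and the latter 2 were dim in both groups. A further probe set whose locus, LOC_Os06g03670, the study's annotation calls DREB1C read 34.0, 38.4 and 40.4 in the control and 2252, 2312 and 2817 in the cold, a log2 change of 6.03 ± 0.29 (limma, adjusted p = 6.73e-16). Counted on the RefSeq names, 4 of the 5 DREB1 genes rose, against 18.7% of all probe sets. The median log2 change of the 5 genes, 4.41, stayed at 3.48 or above after scaling to either set of spike-ins. It was 3.07 with every probe set of the genes counted.

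The 2 largest rises among named genes were of AP2-domain proteins, the wider family to which DREB1 belongs. LOC_Os08g36920 read 33.9, 39.2 and 48.2 in the control and 7602, 7376 and 9862 in the cold, a 205-fold difference (log2 7.68 ± 0.34, limma, adjusted p = 1.03e-16). LOC_Os09g28440 read 13.6, 20.3 and 22.6 in the control, which was dim, and 3066, 3898 and 4186 in the cold, at least 132-fold. Both were picked by a rule that required every cold array to lie above every control array, so that separation is set by the choice. LOC_Os07g47790, a further AP2-domain protein, was dim in the control and at least 4.31-fold higher. The locus annotated as ethylene responsive element binding factor 3, LOC_Os01g58420, rose 6.83-fold from 291–350 to 2126–2243. DREB2B, a factor linked to drought and heat, rose 4.14-fold to 757 to 814 and so stayed under the 5-fold limit. LOC_Os01g54890, annotated as ethylene-responsive transcription factor 2, went the other way, from 1394, 1416 and 1508 to 119, 108 and 229 (10.0-fold lower). Of 7 other AP2/ERF genes with a RefSeq symbol, 3 were higher and none lower, with a median of 0.13 that was −0.35 and −0.80 after scaling to the hybridisation and poly-A controls.

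**Figure D2:**
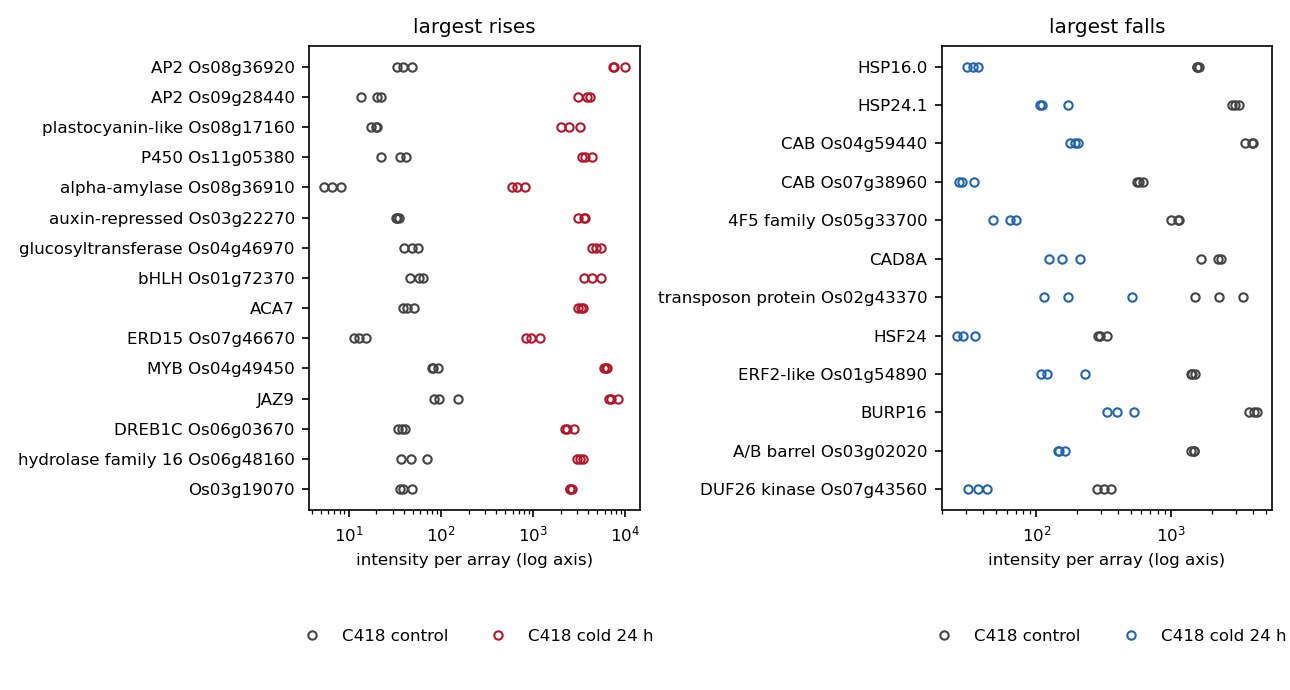
Intensity on each array (x axis, log scale) of the 15 largest rises (left) and the 12 largest falls (right) among genes named by the rule, with grey circles for the 3 control arrays and coloured circles for the 3 arrays of 24 h of cold. Genes were chosen so that control and cold circles do not overlap, so the gap in each row is set by that choice. LOC_Os08g36920 is at 33.9 to 48.2 and 7376 to 9862, and HSP16.0 at 1549 to 1615 and 30.6 to 36.9.

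Other families of transcription factors held strongly induced members too. LOC_Os04g49450, a MYB-family protein, read 93.5, 81.9 and 80.7 in the control and 6130, 5888 and 6289 in the cold, a 71.6-fold rise. LOC_Os01g72370, a helix-loop-helix protein, went from 46.9–63.9 to 3536–5457 (78.1-fold). WRKY24, of a family with roles in defence and hormone signalling, read 295, 288 and 287 against 5334, 5611 and 6574 (log2 4.32 ± 0.20). Among these 3 genes the cold arrays differed most among themselves in LOC_Os01g72370. The MYB-family and helix-loop-helix genes were picked by a rule that required groups without overlap. LOC_Os05g35500, another MYB-family protein, rose 6.27-fold with cold arrays at 606, 634 and 1133. WRKY76 rose 12.1-fold and wrky38 4.73-fold, while WRKY51 fell from 950–1055 to 340–582. Of 6 WRKY genes 3 rose and 1 fell, with a median of 1.3, and after either spike-in scaling 3 were higher and 2 lower.

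Of 8 NAC genes, a plant-specific family with many stress-responsive members, 6 rose and none fell, with a median of 1.08. Counted over every probe set of these genes, 9 were higher and 1 lower. The counts that follow are again for 1 probe set a gene. The counts were 6 higher and 2 lower after scaling to the hybridisation controls (median 0.60) and 3 higher and 2 lower after scaling to the poly-A controls (median 0.15). NAC068 rose 11.6-fold (274, 251 and 334 to 2909, 3108 and 3929) and NAC067 8.58-fold. NAC048, known as OsNAC6, was already at 4783 to 5009 in the control and reached 9152 to 9781 (log2 0.95 ± 0.05). For NAC071 the brighter probe set rose 1.80-fold and the dimmer one 4.44-fold, the latter with 197, 301 and 867 on the cold arrays, so that its size rests much on replicate 3. On the brighter set the value was −0.08 after scaling to the poly-A controls.

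Heat stress factors split. HSF03, a class C factor, read 74.8, 75.0 and 74.3 in the control and 1579, 1642 and 1676 in the cold, a 21.8-fold rise with little spread on either side. HSF07, which RefSeq lists as HSFA3, rose 19.5-fold. HSF24, known as HSFB2C, read 1208, 1079 and 1331 in the control and 126, 120 and 123 in the cold (9.76-fold lower), and its second probe set was 10.3-fold lower. HSF1, known as HSFB2A, was 5.35-fold lower. Over the 21 genes 7 were higher and 10 lower, with a median of −0.26. The bZIP factors, which include the mediators of abscisic acid responses, had 6 higher and 9 lower of 19, none by 5-fold. ABF2 was 2.31-fold higher at 2397 to 2598, and TGA2.1 2.89-fold lower at 587 to 604.

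Clock genes moved in both directions, and the largest changes were the rises of PCL1 and PRR1. PCL1, the rice LUX gene, read 39.6, 39.0 and 39.5 in the control and 1598, 1736 and 2250 in the cold, a log2 change of 5.55 ± 0.18 (limma, adjusted p = 3.47e-19). PRR1, the rice TOC1 gene, rose 8.30-fold to 360, 437 and 417. PRR73, a pseudo-response regulator, fell 2.56-fold to 1780–2042, and GI, GIGANTEA, fell 2.17-fold to 1392–1506. PRR95 and PRR37 had log2 changes of 1.22 and −0.96. Altogether 3 of 7 clock genes were higher and 3 lower, and the median of 0.11 was −0.37 and −0.82 after the spike-in scalings and −0.45 with every probe set of the genes counted. As the control pooled 2 sampling times, time of day and cold cannot be told apart for these or for other genes.

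Calcium signalling was represented at several levels. ACA7, a plasma membrane calcium pump, read 51.2, 38.5 and 43.0 in the control and 3073, 3287 and 3519 in the cold, a 74.8-fold rise. CML15, a calmodulin-like sensor, read 270, 802 and 723 against 5580, 5679 and 6387, and CML27 rose 8.90-fold to 5819–6294. In CML15 the first control array stood well below the other control arrays, and all cold arrays lay above the control. Of 26 calmodulins and calmodulin-like proteins 11 rose, 5 of them beyond 5-fold, and 6 fell, the median being 0.11 and −0.82 after poly-A scaling. CML29 was among those that fell, 1.76-fold. Of 20 calcium-dependent protein kinases, which phosphorylate targets on binding calcium, 11 rose and 2 fell. CPK21 rose 9.35-fold (27.2, 24.5 and 33.2 to 244, 235 and 316) and CPK6, dim in the control, at least 4.95-fold, while the list's median of 0.35 was −0.13 and −0.58 after the spike-in scalings. Of 31 calcineurin B-like proteins and their kinases 13 were higher and 11 lower, and 2 and 21 after poly-A scaling. CIPK14 rose 3.04-fold and CIPK5 fell from 2389, 2505 and 2261 to 382, 398 and 375.

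JAZ proteins, repressors of the jasmonate response that are themselves transcribed when the hormone is perceived, included strongly induced genes. JAZ9 read 94.9, 85.2 and 155 in the control and 6980, 6637 and 8357 in the cold, a 67.6-fold rise (log2 6.08 ± 0.30, limma, adjusted p = 8.90e-16). JAZ13 read 109, 144 and 158 against 4650, 4703 and 6722 (39.0-fold). Of the 13 JAZ genes 10 rose, 5 of them beyond 5-fold, and none fell, with a median of 1.41. After scaling to the hybridisation controls 7 were higher and 4 lower, with a median of 0.93, and after scaling to the poly-A controls 6 were higher and 5 lower, with a median of 0.48.

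Abscisic acid genes moved in both directions. ABA8OX1, a cytochrome P450 that breaks abscisic acid down, read 200, 303 and 297 in the control and 10021, 9943 and 10445 in the cold, among the highest intensities of any named gene (log2 5.27 ± 0.16, limma, adjusted p = 8.50e-20). SAPK9, a kinase of the abscisic acid pathway, rose 3.57-fold to 129 to 156, and ABA1, zeaxanthin epoxidase of its synthesis, fell 2.28-fold to 435 to 492. Of the 15 genes 6 rose and 3 fell. Those that rose include the bZIP factor TRAB1 (log2 0.39), matched by its alias aba1 and counted among the bZIP factors too. Among 55 type 2C protein phosphatases, some of which inhibit that pathway, 24 rose and 12 fell, PP2C73 by 11.0-fold, PP2C27 by 9.73-fold and PP2C05 downward by 3.16-fold. Their median was 0.20 and fell below 0 after either scaling, at −0.28 and −0.73.

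Growth hormone genes also changed. LOC_Os03g22270, annotated as an auxin-repressed protein, had the lowest adjusted p of the named genes, reading 35.3, 33.9 and 33.0 in the control and 3693, 3080 and 3615 in the cold (log2 6.66 ± 0.13, limma, adjusted p = 3.14e-24). ARF10, an auxin response factor, rose 9.72-fold to 558–622, and IAA20, an Aux/IAA repressor, fell 3.53-fold. A further gene listed under each symbol was at a log2 change of 0.78 for ARF10 and −0.07 for IAA20, the latter not called. Of 43 auxin response genes 23 rose and 5 fell, with a median of 0.34 that was −0.14 and −0.59 after the spike-in scalings. SLR1, the DELLA repressor of gibberellin signalling, rose 1.94-fold from 1946–2125 to 3894–4033, and 2 of the 6 gibberellin genes rose while 1 fell.

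Genes of protective proteins changed in both directions. LOC_Os07g46670, annotated as early response to dehydration 15, was dim in the control at 11.5 to 15.6 and read 850, 942 and 1181 in the cold, at least 35.2-fold. Dhn1, a dehydrin also called LIP9, rose 3.63-fold from 1336, 1565 and 1393 to 4807, 5261 and 5487. The dehydrin RAB21 went the other way, from 1917, 2683 and 2922 to 569, 896 and 557, and RAB16B from 632, 1062 and 1081 to 186, 272 and 167. In both, the 3 cold arrays lay below the 3 control arrays, but the errors were large (log2 −1.91 ± 0.73 and −2.14 ± 0.79, limma, adjusted p = 0.0359 and 0.0307). Leaving out control replicate 2 or 3, or 24 h replicate 1 or 3, raised these adjusted p to between 0.0734 and 0.0945. Of the 7 late embryogenesis abundant proteins and dehydrins 2 rose and 4 fell.

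Single carbohydrate genes were strongly induced. TPP1, trehalose-6-phosphate phosphatase, read 97.2, 107 and 141 in the control and 6468, 6703 and 6482 in the cold (57.6-fold). The locus annotated as trehalose-6-phosphate synthase, LOC_Os08g34580, rose 10.5-fold to 874, 899 and 1272. The other 8 trehalose phosphatase genes were closer to the control, with 1 higher and 1 lower, so that 22.2% of the list rose. Of the starch-degrading enzymes, LOC_Os08g36910, an alpha-amylase precursor, read 5.47 to 8.36 in the control and 591, 671 and 812 in the cold, at least 24.5-fold, and the probe set named AMY1.3, an alpha-amylase too, was at least 13.8-fold higher. Whether these 2 probe sets measure 1 gene was not settled. Both were dim on all control arrays and clear on all cold arrays, and the rule that picked LOC_Os08g36910 required groups without overlap. Of 8 starch breakdown genes with a symbol 2 rose, AMY1.3 and DPE1 (log2 1.09), and the probe set of LOC_Os08g36910 was not in that list. SWEET1B, a sugar transporter, fell from 3465, 3417 and 3035 to 905, 862 and 975, and the 36 genes of sugar transport and sucrose metabolism had 9 higher and 9 lower. GDH2, glutamate dehydrogenase, rose 8.53-fold to 4409–5132 as the 1 induced member of 19 nitrogen metabolism genes, of which 3 rose (15.8%) and 4 fell (21.1%), both shares near those of all probe sets.

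**Figure D3:**
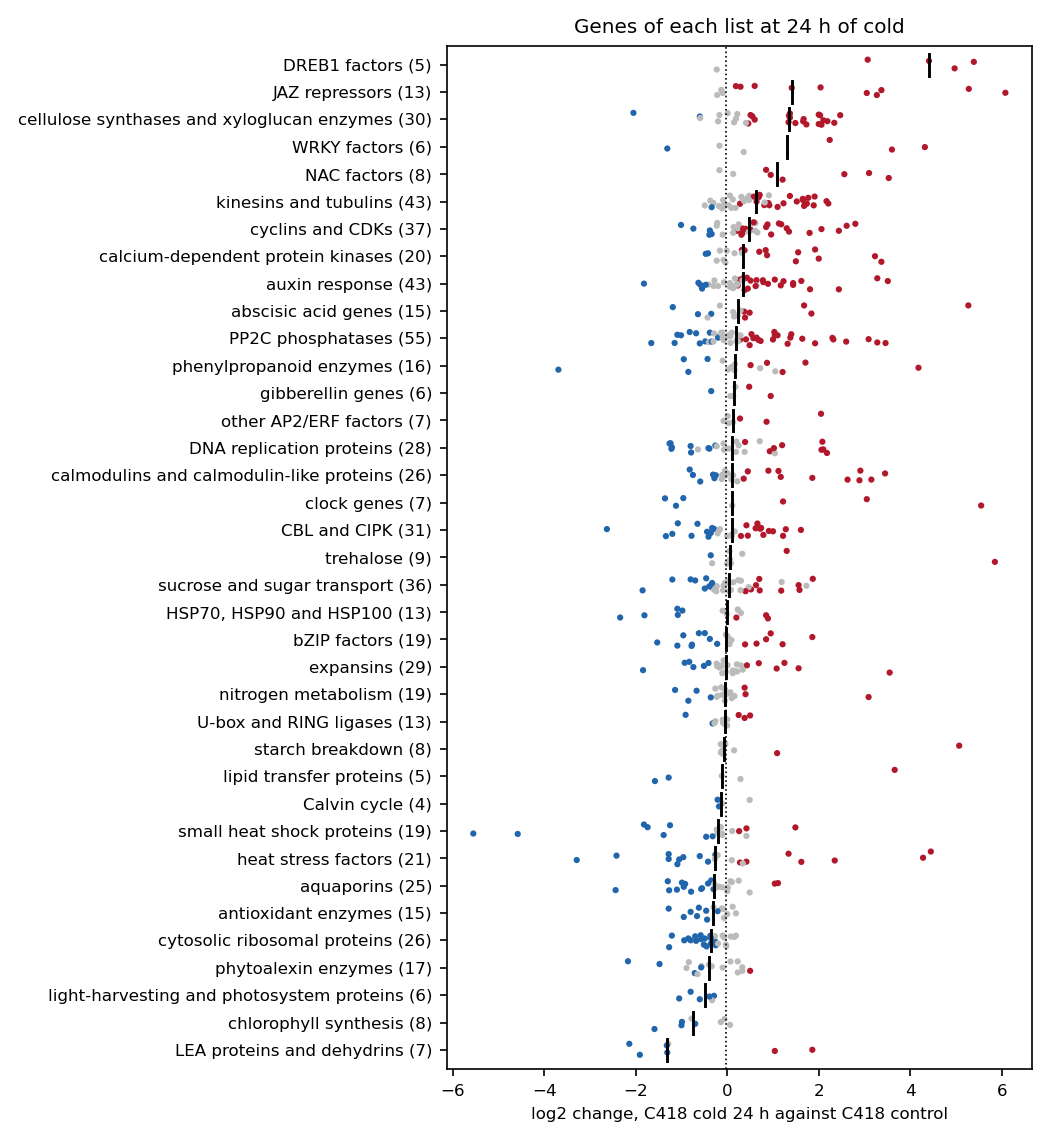
Log2 change of each gene of the gene lists (x axis; 1 probe set a gene, number of genes in brackets) at 24 h of cold against the C418 control, red for higher and blue for lower at an adjusted p under 0.05 and grey otherwise, with a black bar at each list's median and a dotted line at the median of all probe sets. The DREB1 list has the highest median, 4.41, and the medians of the kinesin (0.64), cyclin (0.47), calcium-dependent kinase (0.35) and auxin (0.34) lists were −0.29, −0.46, −0.58 and −0.59 after scaling to the poly-A controls.

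Of 30 cellulose synthase family and xyloglucan genes, whose products build and remodel the wall's load-bearing network, 20 rose and 2 fell, with a median of 1.34. The counts were 14 higher and 7 lower after scaling to the hybridisation controls (median 0.87) and 12 higher and 13 lower after scaling to the poly-A controls (median 0.42). Over every probe set of these genes 26 were higher and 2 lower, with a median of 0.72. XTH8, a xyloglucan enzyme of the list, was not called (log2 0.22, limma, adjusted p = 0.614). CESA5, a cellulose synthase, read 157, 159 and 183 in the control and 885, 988 and 895 in the cold (5.55-fold). CESA6 rose 5.05-fold to 1440, 1516 and 1083, so that both lay just above the limit. LOC_Os06g48160, a family 16 glycosyl hydrolase, rose 65.0-fold to 3012, 3519 and 3253, while CSLE1, a cellulose synthase-like protein, fell 4.13-fold. BC1L9, a COBRA-like protein related to cellulose deposition, read 39.4, 42.4 and 39.0 against 1764, 2186 and 2854 (55.3-fold). Expansins, which loosen walls, had 6 higher and 6 lower of 29. EXPA7 was at least 5.63-fold higher and EXLA4 3.57-fold lower. In phenylpropanoid metabolism, the source of lignin, PAL06 rose 18.2-fold to 2787–3211 and CAD8A fell 12.9-fold from 2317, 1653 and 2215 to 154, 123 and 209, with 5 of 16 higher and 4 lower.

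Cell division genes had small but frequent changes. Of 37 cyclins, cyclin-dependent kinases and their inhibitors 20 rose and 5 fell, with a median of 0.47 that was −0.01 and −0.46 after the spike-in scalings. CDC2Os-3, the mitotic kinase CDKB2;1, read 46.4, 46.0 and 45.5 against 268, 426 and 286 (6.96-fold). CYCP4-1, a P-type cyclin, rose 6.09-fold, and CYCD3-1, a D-type cyclin of the entry into division, fell 2.02-fold. Of 43 kinesins and tubulins, the motors and fibres of the cytoskeleton, 22 rose and 1 fell, none by 5-fold, and the median of 0.64 was −0.29 after poly-A scaling. KIN13B rose 4.63-fold to 1094–1519 and KIN14F 4.49-fold to 123–216. Among 28 DNA replication proteins 8 were higher (28.6%) and 9 lower (32.1%). RPA1B, a single-strand binding subunit, rose 4.53-fold. MCM3, a helicase subunit, read 32.1, 151 and 28.5 in the cold, and its log2 change of 2.1 came down to 1.32 (limma, adjusted p = 0.0613) without replicate 2.

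Several of the most induced genes belong to other families. LOC_Os08g17160, with a plastocyanin-like domain, was at least 90.3-fold higher, at 3202, 2488 and 2009 in the cold. LOC_Os11g05380, a cytochrome P450, rose 117-fold to 3416–4355, and LOC_Os04g46970, a glucosyltransferase, 101-fold to 4345–5430. LOC_Os03g19070, annotated as a long cell-linked locus protein, read 2524, 2525 and 2636 in the cold, 62.5-fold above the control. LOC_Os12g18560, an inhibitor of invertase or pectin methylesterase, read 5.34 to 7.62 in the control and 376, 302 and 432 in the cold, at least 13.1-fold.

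The largest falls among named genes were of small heat shock proteins, chaperones that hold unfolding proteins. HSP16.0 read 1551, 1549 and 1615 in the control and 30.6, 36.9 and 33.6 in the cold (46.8-fold lower, limma, adjusted p = 1.13e-20). HSP24.1, a mitochondrial member, read 2976, 2824 and 3164 against 106, 109 and 170 (23.9-fold lower). From the brighter end of the array in the control, both came down to low intensities in the cold. The rule that picked them required groups without overlap. HSP26.2, another member, rose 2.81-fold to 210–284, and of all 19 small heat shock proteins 8 fell and 3 rose. In the larger chaperones 5 of 13 fell and 3 rose. BIP1, the chaperone of the endoplasmic reticulum, fell 5.08-fold to 517, 735 and 549, and HSP81-1, an HSP90, fell 3.51-fold from 7291–7692 to 2050–2193. CLPD1, a plastid ClpD chaperone, rose 1.80-fold to 2855, 2919 and 3548, a difference of −0.08 in log2 after scaling to the poly-A controls.

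Some genes of light harvesting were lower. LOC_Os04g59440, a chlorophyll a-b binding protein, read 4021, 3521 and 3942 in the control and 203, 176 and 194 in the cold (log2 −4.32 ± 0.31), and LOC_Os07g38960, of the same family, fell 19.7-fold to 26.7–34.5. Both were picked by the rule that required groups without overlap. The abundant LHCP fell much less, 1.23-fold, from 12584–12940 to 9573–10888, and its adjusted p of 0.0224 (limma) became 0.113 without 24 h replicate 3. PSAG, a photosystem I subunit, fell 2.07-fold to 2915 to 3073. Of 6 light-harvesting and photosystem genes with a symbol 5 fell and none rose, and of 4 Calvin cycle genes 2 fell. Those that fell include the electron carriers PETE and LFNR1. Over every probe set of the light-harvesting and photosystem genes, 6 were lower and 1 higher. CAB2R, the other chlorophyll a-b binding protein of that list beside LHCP, was not called (log2 −0.33, limma, adjusted p = 0.0816). In chlorophyll synthesis 4 of 8 fell and none rose, among them PORB, protochlorophyllide reductase (3.00-fold, to 803–1229), and CHLH, a magnesium chelatase subunit (1.99-fold, to 1210–1933). Counted over every probe set of these genes, 4 were lower and 2 higher, and the median of −0.74 became −0.42.

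Of 26 cytosolic ribosomal proteins 17 fell and none rose, with a median of −0.36. When every probe set of these genes was counted, 29 were lower and 1 higher. RPL11 went from 2169–2480 to 830–1055 and rps20 from 2911–2989 to 1241–1287. Of 25 aquaporins, the water channels of membranes, 13 fell and 2 rose. TIP1-2, of the vacuolar membrane, read 720, 536 and 490 against 102, 94.6 and 123 (5.43-fold lower), and PIP2-7, of the plasma membrane, fell 2.46-fold. None of 15 antioxidant enzymes rose and 8 fell, such as catA, a catalase (1.94-fold, from 9430–9820 to 4587–5194), and APX5, an ascorbate peroxidase (2.43-fold). Among all probe sets of these enzymes 16 were lower and 1 higher. Of 17 phytoalexin enzymes 1 was higher and 4 lower (23.5%, near the 22.5% of all probe sets), and of 13 U-box and RING ubiquitin ligases 3 were higher and 2 lower.

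Among other strongly repressed genes, LOC_Os05g33700, a 4F5 family protein, fell 18.1-fold, from 1001–1146 to 48.0–70.5. LOC_Os03g02020, with a stress-responsive A/B barrel domain, fell 9.52-fold to 145–162. BURP16, a protein with a BURP domain, fell 9.87-fold, and LOC_Os07g43560, a DUF26 receptor-like kinase, 8.62-fold. In LOC_Os02g43370, annotated as a transposon protein, the control arrays ranged from 1494 to 3400 and the cold arrays from 114 to 508.

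The 24 h sampling lies within a time course of C418, and all its times were set against the same 3 control arrays. The 24 h and 48 h samplings share a time of day, which the 2 h, 6 h and 12 h samplings do not. Side by side, the 946 probe sets induced at 24 h had a median log2 change of 0.64 at 2 h, 1.42 at 6 h and 2.13 at 12 h, of 3.08 at 24 h, where they were chosen, and of 3.71 at 48 h. The 195 repressed ones had −1.14, −1.74, −2.25, −2.61 and −3.12. The highest C418 mean fell at 48 h for 721 of the induced and at 24 h for 181. These medians and peaks were not rescaled to the spike-ins, which also rose with time. From 2 h to 48 h the hybridisation controls read 0.07, 0.13, 0.25, 0.48 and 0.81 above the C418 control in log2. The poly-A controls read 0.01, 0.39, 0.57, 0.93 and 1.3 above it. Single genes differed in course. DREB1A had means of 4705, 5481 and 4258 at 2 h, 6 h and 12 h and 4112 at 48 h, so that the 24 h level lay within the range of the other cold times. DREB1E was highest at 2 h with a mean of 974. HSP16.0 was at 121 by 2 h and at 33.6 at 48 h, whereas PCL1 read 91.7, 262 and 509 up to 12 h and 4365 at 48 h.

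**Figure D4:**
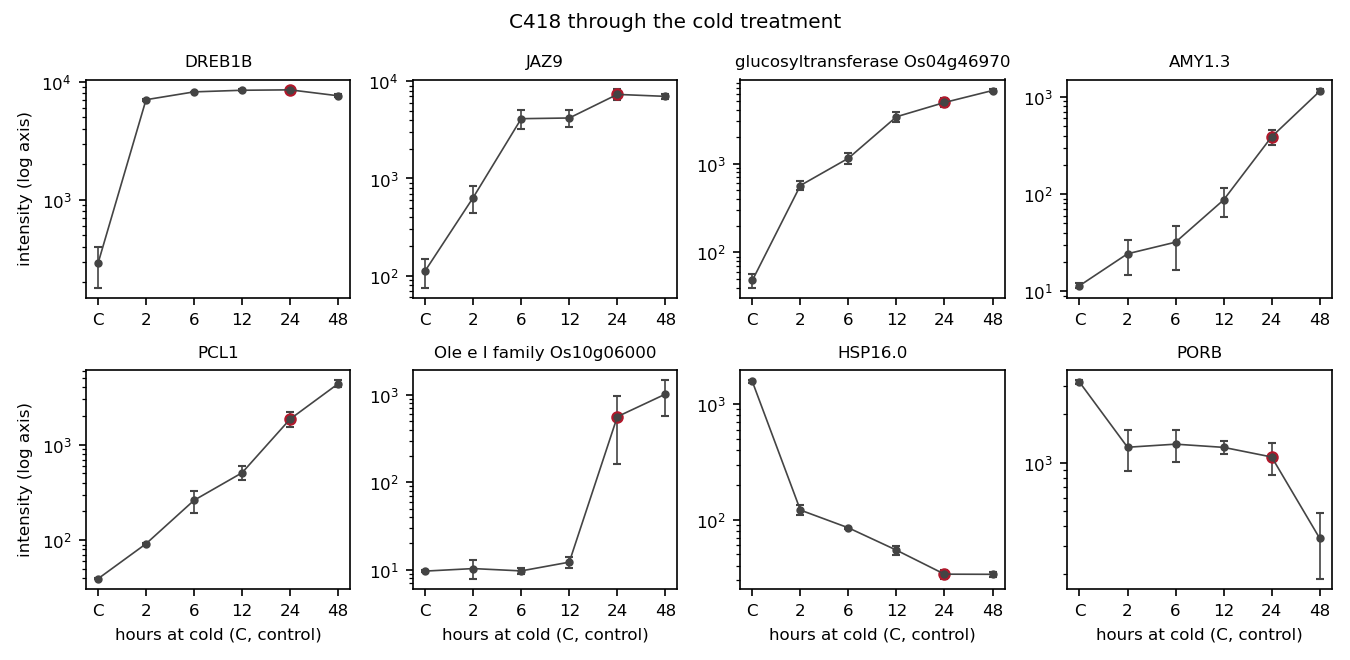
Mean intensity (y axis, log scale, bars 1 SD, n = 3) of 8 genes in C418 in the control (C) and at each of the 5 cold samplings (x axis, in hours), with the 24 h sampling in red. DREB1B is at 7050 by 2 h and HSP16.0 down to 121. LOC_Os10g06000, dim in the control at 9.64, is at 12.2 at 12 h and at 562 at 24 h.

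The 12 h and 24 h samplings fall at different times of day under the 12 h photoperiod, so time of day and longer cold cannot be told apart. Between 12 h and 24 h, 157 probe sets rose by more than 5-fold (0.274% of those tested) and 3 fell (0.00524%, limma). Those named here with the largest rises were near their control level at 12 h. LOC_Os10g06000, of the pollen Ole e I and extensin family, had a mean of 12.2 ± 1.72 (SD, n = 3) at 12 h and read 317, 1026 and 345 at 24 h (log2 5.31 ± 0.99, limma, adjusted p = 0.000611). LOC_Os05g38000, an activator of ROP GTPases, had 12.5 ± 0.79 at 12 h and read 297, 547 and 272. LOC_Os11g32100, annotated as an inducer of CBF expression 1, had 26.6 ± 5.26 and read 360, 810 and 353. In all 3 the second array was the highest at 24 h. These genes were picked only where every 24 h array lay above every 12 h array. LOC_Os02g57110, a GDSL-like lipase, read 93.7, 475 and 188, and the lipid transfer proteins LOC_Os01g59870 and LTP110-A read 52.2, 476 and 212 and 575, 1867 and 707. IAA14, an Aux/IAA protein, read 34.7, 126 and 36.5. Of the 157 probe sets, replicate 2 was the highest 24 h array in 103, replicate 1 in 44 and replicate 3 in 10. Measured against the 12 h mean, the median log2 rise was 2.91, 3.53 and 2.36 on replicates 1, 2 and 3, and without replicate 3 the number of probe sets past 5-fold in either direction was 230 in place of 160. Lipid transfer proteins as a list had 1 of 5 higher and 2 lower against the control.

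From 24 h to 48 h, 99 probe sets rose by more than 5-fold (0.173%) and 8 fell (0.014%), a split of 92.5% upward that was 70.0% and 65.9% after scaling to the hybridisation and poly-A controls. Of these 99, 56 were already higher than the control at 24 h at an adjusted p under 0.05 (limma), 19 of them by more than 5-fold, and 11 were lower. The shares over all probe sets were 18.7% higher and 22.5% lower, and the median log2 change of the 99 at 24 h was 1.07. Most of the genes named here, chosen as the largest rises, were low at 24 h. LOC_Os02g08330, annotated as gp176, read 24.9, 39.4 and 33.8 at 24 h, overlapping the control, and 689 ± 110 at 48 h (log2 4.41 ± 0.19, limma, adjusted p = 5.97e-16). LOC_Os11g12650, with a PHD finger, read 232, 230 and 227 at 24 h, already 5.63-fold above the control, and 4432 ± 425 at 48 h. PDC, a pyruvate decarboxylase of fermentation, read 65.6, 77.1 and 95.2 at 24 h and 1391 ± 271 at 48 h. The P450 proteins LOC_Os01g43740 and LOC_Os10g05020 stood at 17.8 to 39.1 and at 36.6 to 63.4 at 24 h and reached 583 ± 185 and 687 ± 159. LOC_Os09g34250, a glycosyltransferase, read 47.2 to 79.2 at 24 h and 629 ± 46.1 at 48 h. MT2C, a metallothionein, fell from 3509, 3350 and 2468 to 563 ± 76.0 (log2 −2.46 ± 0.28, limma, adjusted p = 1.21e-07).

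K354 was treated for the same 24 h with its own control, and 1063 probe sets were induced (1.86%) and 179 repressed (0.313%). Of the probe sets induced in C418, 709 were induced in K354 too, which is 74.9% of the C418 set and 66.7% of the K354 set. For the repressed ones the number was 104, or 53.3% and 58.1%. The test of the difference itself, the line by cold interaction, called 393 probe sets (0.686%) with a higher and 500 (0.873%) with a lower log2 response in K354 (limma, adjusted p under 0.05). The higher share of 44.0% was 65.9% and 74.9% after scaling to the hybridisation and poly-A controls, and single K354 arrays moved the counts, to 263 higher without control replicate 1, to 1323 higher and 773 lower without 24 h replicate 2, and to 342 lower without 24 h replicate 3.

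In several of the genes with the largest interaction, the lines differed in the control or 1 line stayed near its control level. K354 carries segments of the indica donor Bg300, and the array holds mostly japonica sequences. The part of sequence differences in the K354 intensities was not tested. LOC_Os12g18560, the inhibitor described above, had means of 4.72 and 10.9 in the K354 control and at 24 h, against 370 in the cold in C418 (interaction −4.67 ± 0.40, limma, adjusted p = 9.18e-09). The controls of both lines and the K354 cold level of this gene were at background, and with such values raised to the 25th percentile the interaction was −3.70. CPK21 read 18.3 and 19.2 in K354 and rose 9.35-fold in C418 (interaction −3.16 ± 0.35, limma, adjusted p = 1.29e-06). BC1L9 started higher in K354, at 214, and reached 778 against 2268 in C418. DREB1G likewise started higher in K354, at 366, and reached 3005 there, an interaction of −2.35 (limma, adjusted p = 0.000366). ABA8OX1 (722 and 9403 in K354, −1.52) and WRKY24 (642 and 4875, −1.43) had the same form, with a higher control in K354 and cold levels of like size in both lines.

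The reverse, a fall in C418 from an intensity not seen in K354, occurred in LOC_Os07g03920, a lectin-like receptor kinase. It read 1070, 949 and 1041 in the C418 control and 146, 115 and 149 in the cold. In K354 its means were 27.7 and 16.3, and the interaction was 2.14 (limma, adjusted p = 3.67e-06). LOC_Os11g12320, annotated as the disease resistance protein RPM1, fell from 1340, 1271 and 1115 to 279, 268 and 317 in C418 and stood at 124 and 122 in K354. LOC_Os06g12870, annotated as related to leaf senescence, and APX5 showed the same form at lower levels. LOC_Os03g18070, a chloroplast omega-3 fatty acid desaturase, was dim in both C418 groups and went from 501 to 136 in K354, and LOC_Os02g11110, a flavonol glucosyltransferase, read 2.1 or less on every C418 array of both groups and went from 383 to 29.9 in K354. For both genes the C418 values lie at background, so the sizes of −4.54 and −3.10 are not firm, and with values below each array's 25th percentile raised to it they were −1.85 and −3.55. LOC_Os03g21660, annotated as a transposon protein, was induced in both lines, from a dim control to 101, 74.0 and 77.2 in C418 and to a mean of 484 in K354, with an interaction of 2.38.

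**Figure D5:**
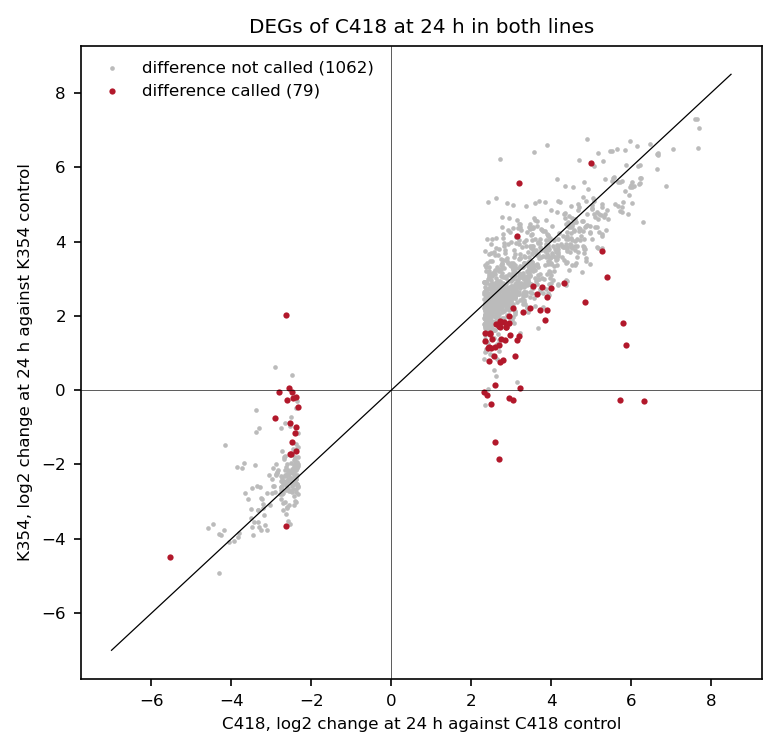
Log2 change after 24 h of cold in C418 (x axis) and K354 (y axis), each against its own control, for the 946 induced and 195 repressed probe sets of C418; red points were called for the line by cold interaction and the diagonal marks equal changes. The points were chosen on their C418 value only, so distances from the diagonal carry no test here, and 61 of the induced and 18 of the repressed ones were called.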

How the data were processed

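Labelled RNA of C418 and K354 shoots was hybridised to 36 Affymetrix rice arrays in 12 groups of 3. The deposited values are linear intensities per probe set: the sample records name MAS5 (version not given), while the methods of the study name GCOS and an invariant-set normalization in dChip, and which scale the values are on was not settled. The authors' normalization was kept and log2 of the deposited intensities was taken with no offset. The columns of all 36 arrays were used and 0 pairs of arrays were identical. The array count limits the precision.

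All 12 groups entered 1 linear model in limma 3.58.1 (R 4.3.3; tables in Python 3.11.15 with pandas 2.3.3), and p-values were adjusted by the Benjamini-Hochberg method over the 57258 probe sets that are not manufacturer controls. A DEG had an adjusted p under 0.05 and more than a 5-fold change. For the interaction the adjusted p alone decided the call, with the same threshold. A probe set was dim in a group when all 3 arrays lay below the 25th percentile of their own array. The scripts were tested on simulated data.

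Gene names came from the platform annotation updated through RefSeq (22436 tested probe sets with 1 gene, 95 with several and 34727 with none) and, for 1687 probe sets, from loci in the supplementary tables of the study. Probe sets whose name ends in x_at or s_at can also bind related genes. Gene lists were matched on symbols, as RefSeq products were too seldom described, with the brightest probe set for each gene. Named were the largest changes with groups that do not overlap and a symbol or described product, up to 4 members of each list, and genes named in the text of the study. Members and lists were chosen with earlier results of these data known. Residuals of control and 24 h arrays with the same replicate number correlated at 0.0032, 0.0446 and −0.0455, so numbers were not taken as pairs. Alternatives were quantile and median scaling, scaling to spike-in controls, a floor, an offset of 16, a 2-fold limit, the methods' t-test, a replicate block and leaving out arrays. Promoter sequences were not used here.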

Additional observations from a re-analysis of the deposited data

Results flagged for a closer look

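The response to 24 h of cold differed between K354 and C418 by the interaction test (limma, adjusted p under 0.05) for 393 probe sets that were higher in K354 and 500 that were lower. Among named genes with a smaller rise or a larger fall in K354, the log2 difference of the response was −4.67 for LOC_Os12g18560, −4.54 for LOC_Os03g18070, −3.98 for BC1L9, −3.16 for CPK21, −3.10 for LOC_Os02g11110, −2.35 for DREB1G, −1.52 for ABA8OX1, −1.51 for PDC, −1.43 for WRKY24, −1.35 for HSP26.2 and −0.99 for NAC071 on its brighter probe set. PDC stood at 30.6 and 32.4 in the K354 control and cold, and NAC071 at 3745 and 3411, while both rose in C418. The values of LOC_Os12g18560, LOC_Os03g18070 and LOC_Os02g11110 rest on intensities at background and were −3.70, −1.85 and −3.55 with a floor at the 25th percentile, so their order is not firm.

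In the other direction the difference was 2.38 for LOC_Os03g21660, 2.14 for LOC_Os07g03920, 2.05 for LOC_Os11g12320, 2.03 for GST1, 2.01 for LOC_Os06g12870, 1.20 for APX5, 1.05 for HSP16.0, 0.96 for CLPD1 and 0.92 for LOC_Os07g07974, a tesmin/TSO1-like protein that rose 3.96-fold in C418. The GST1 difference (limma, adjusted p = 0.043) had adjusted p between 0.0503 and 0.176 without any 1 of 10 of the arrays.

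Signal outside the tested probe sets also moved: the hybridisation controls read 0.479 higher and the poly-A controls 0.929 higher in log2 at 24 h than in the C418 control, with ranges over the 3 arrays of 0.466 to 0.503 and 0.906 to 0.947. At 48 h the differences were 0.813 and 1.3.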

How the results depend on the processing

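The counts for 24 h against the control were 946 higher and 195 lower. They were 589 and 524 after scaling to the hybridisation controls, 408 and 1313 after scaling to the poly-A controls, 3540 and 2972 at a 2-fold limit, and 693 and 109 with an offset of 16 before the log. Leaving out 1 array gave 902 to 1001 higher and 186 to 200 lower. With the replicate number as a block they were 946 and 195, and the block moved no count by 1.5 times and ended the call of 1 of 159 values of named genes. The numbers of 24 h against 12 h (160) became 103 with poly-A scaling, 83 with the offset, 1359 at 2-fold and 29 by the methods' t-test after Benjamini-Hochberg adjustment, and 114 to 230 without 1 array. Those of 48 h against 24 h (107) became 68 and 1444 with the offset and at 2-fold, and 91 to 149 without 1 array. For the interaction, the lower count of 500 became 226 and 152 with the scalings and 2917 at an unadjusted p, the higher count of 393 became 615 with a floor at the 25th percentile and 2946 at an unadjusted p, and without 1 array they ran from 342 to 773 and from 263 to 1323. The cause of these moves was not tested.

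Of 2433 values of named genes under the alternatives, 2364 kept direction and call, 35 lost the call, 17 gained it and 17 changed sign. Signs changed for LOC_Os09g34250 (−0.0021 with quantile scaling, −0.014 with median centring, −0.46 and −0.91 with the scalings, and −0.15 to 0.24 without 1 array, negative without 24 h replicate 1, 24 h replicate 3 or control replicate 2), LOC_Os02g08330 (−0.30 to 0.03 without 1 array, positive without 24 h replicate 1), MT2C (−0.24 and −0.69 with the scalings) and DREB1C (−0.014 and −0.46 with the scalings and −0.0079 with the floor on one probe set, −0.27 to 0.057 without 1 array on another, positive without 24 h replicate 2). NAC071 (−0.082) and CLPD1 (−0.079) changed sign with poly-A scaling, and LOC_Os03g18070, dim in both C418 groups, with the floor (−0.0079). Low intensities near the 25th percentile limit the folds of dim genes, and 3 arrays a group limit all errors. The call of LOC_Os10g05020 at 24 h against the control was lost without 24 h replicate 2 (−0.65, limma, adjusted p = 0.0993).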

Other observations

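The induced AP2-domain gene LOC_Os08g36920 (205-fold) and the induced alpha-amylase gene LOC_Os08g36910 (at least 24.5-fold) carry consecutive locus numbers on the same chromosome. Their courses differed: LOC_Os08g36920 had a mean of 3845 by 2 h and 6686 at 48 h, whereas LOC_Os08g36910 was at 28.5 at 2 h, 150 at 12 h and 1972 at 48 h. DREB1B and DREB1A likewise have neighbouring numbers, LOC_Os09g35010 and LOC_Os09g35030, and were at 7050 and 4705 by 2 h. This pair of neighbours was noticed after its values were seen, and closeness of induced genes was not tested.

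The 5.8S rRNA probe set read 57.6 to 69.8 in the control and 580 to 803 at 24 h, while 18S rRNA read 6814 to 7495 and 7689 to 8185. The 3′ ubiquitin probe set stood at 9898 to 10016 and 9796 to 9875.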
